A study of Homo sapiens with 6 samples.

Results

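Fatty acid oxidation was followed through 8 genes in T84 cells depleted of ACSL4: CPT1A, CPT2, ACADVL, ACADM, HADHA, HADHB, EHHADH and ETFDH. They were taken by symbol from the deposited gene table, where all 8 were found once among 58735 genes, and all 8 passed the filter on low counts that left 15694 genes for testing. None of the 8 encodes an enzyme of ketone body formation, so other genes of ketone body metabolism are described below from a separate list. T84 is an established human colorectal cancer cell line that forms a chloride-secreting epithelium, and ACSL4 is an acyl-CoA synthetase that attaches coenzyme A to long polyunsaturated fatty acids. Total RNA was extracted with Trizol, freed of ribosomal RNA and sequenced from 3 libraries of T84 cells with a short hairpin against ACSL4 (shACSL4) and 3 libraries with a control hairpin (shControl). The sample titles name hairpins, whereas the series text speaks of a knockout. The hairpin sequences, the number of hairpins, any selection of clones and the growth of separate cultures cannot be learned from the labels, so p-values measure the spread between these libraries, which may be technical. ACSL4 itself was at 10.3, 9.12 and 11.1 CPM (counts scaled to library size) in the shACSL4 libraries, against 75.5, 72.2 and 72.0 CPM in the shControl libraries.

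Long-chain acyl-CoA cannot cross the inner mitochondrial membrane, so CPT1 enzymes on the outer membrane exchange coenzyme A for carnitine, a translocase carries the acylcarnitine across, and CPT2 on the matrix side restores the acyl-CoA. Each turn of β-oxidation then removes an acetyl-CoA by an acyl-CoA dehydrogenase, an enoyl-CoA hydratase, a hydroxyacyl-CoA dehydrogenase and a thiolase; ACADVL and the trifunctional protein made of HADHA and HADHB act on long chains, and ACADM on medium chains. Electrons taken by the first dehydrogenases pass through the flavoprotein ETFA-ETFB to ETFDH, which hands them to ubiquinone, while EHHADH carries the hydratase and dehydrogenase activities of a separate peroxisomal pathway. CPT1A, ANGPTL4 and PLIN2 are textbook targets of the fatty acid-sensing nuclear receptors of the PPAR family, and colonic epithelium is known for oxidising short-chain fatty acids.

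The promoter-side sequences shown here belong to the 2 genes that fell, CPT1A and ACADVL, and to the pair HADHA and HADHB, which start next to each other. They come from RefSeq promoter windows on GRCh38.p14 (250 bases before and 50 after a gene's start), cut to bases outside every GENCODE v29 exon; 6 of the 8 genes had a window, ACADVL had 2, and EHHADH and ETFDH are named only. The CPT1A stretch lies at chr11:68844411-68844527 on the minus strand, ending 134 bases before the RefSeq start, and the ACADVL stretch lies at chr17:7216875-7217117 on the plus strand, ending 8 bases before it. HADHA and HADHB share the 21 bases at chr2:26244727-26244747, read on the minus strand for HADHA and on the plus strand for HADHB, 95 and 192 bases from their RefSeq starts.
CPT1A: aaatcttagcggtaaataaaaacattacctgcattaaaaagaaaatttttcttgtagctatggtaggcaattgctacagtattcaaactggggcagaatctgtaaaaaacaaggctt
ACADVL: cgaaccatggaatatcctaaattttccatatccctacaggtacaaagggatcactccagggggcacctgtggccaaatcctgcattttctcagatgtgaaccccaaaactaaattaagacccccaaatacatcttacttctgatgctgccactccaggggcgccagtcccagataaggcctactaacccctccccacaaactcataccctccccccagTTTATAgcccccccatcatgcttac
HADHA: ggggcagggctaaggggccgg
HADHB: ccggccccttagccctgcccc

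Capitals in the ACADVL sequence mark the only motif match inside these 4 stretches, TATAAA read on the opposite strand. Searched on both strands, TATAAA occurs in 11.5% of all 35116 promoter windows, and the second ACADVL window held no match. The nuclear receptor core motif AGGTCA was found in 13.8% of all windows, its extended form AAGGTCA, which contains it, in 3.92%, and a direct repeat of the core motif spaced by 1 base (DR1) in 0.0228%; none of the 7 windows of the 6 genes held any of these. The Sp1 motif GGGCGG, present in 45% of all windows, was found 4 times each in the CPT2 and ACADM windows, 2 times each in the HADHB window and the second ACADVL window, and 1 time in the HADHA window. The HADHA and HADHB windows overlap, and the HADHA match is the same bases as 1 of the 2 HADHB matches. The ETS motif CCGGAAG (10.3% of all windows) was found 3 times in the CPT2 window. TGACGTCA (1.85%), CACGTG (7.26%) and CCAAT (34.6%) were in none of the 7. GC content was 50% in the CPT1A window and 52.7% in the first ACADVL window, against a median of 58.7% over all windows. The other 5 windows lay at 65% to 68.7%, and they include the second ACADVL window at 65.7%. The windows of ACADVL thus lay on both sides of the median. CPT1A has 8 annotated transcript starts and ACADVL 34, and sequence outside these windows was not searched. A match or its absence describes these letters only.

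Library totals ran from 14740383 to 17189496 counts in shACSL4 and from 15119283 to 17620630 in shControl, so 3 counts correspond to 0.171 to 0.202 CPM. Mitochondrially encoded genes took 7.30% to 8.43% of counts in shACSL4 and 8.13% to 9.91% in shControl. All 11 colon epithelial markers were detected, summing to 8049 to 9311 CPM in shACSL4 and 6820 to 8024 CPM in shControl. They did not move together: 6 were called higher and 1 lower, against 24% and 23.1% of all tested genes. KRT8, the largest part of the sum, was at 3034 CPM in shACSL4 and 2128 CPM in shControl. EPCAM was the marker called lower, at 1097 CPM in shACSL4 and 1468 CPM in shControl (-0.42, edgeR adjusted p = 0.00168). Of 16 markers of immune, stromal, endothelial, liver, muscle and fat cells only 6 passed the filter, and these 6 summed to 12.4 to 15.5 CPM in shACSL4 and 43.9 to 50.3 CPM in shControl; 5 of the 6 were called lower, CPS1 and CIDEC made up most of the sum, PDGFRB was the sixth (0.64, edgeR adjusted p = 0.243). Of the other 10, PTPRC had 2 to 3 counts in shACSL4 and 5 to 11 in shControl, PECAM1 had 1 to 2 in shACSL4 and 3 to 16 in shControl, CDH5 had 4 to 9 in shACSL4 and 0 to 3 in shControl, CD3E had no read in any library, and COL1A2, ALB, APOB, MYH7, CKM and ADIPOQ had at most 3 counts in each. The part of these shifts in the results below was not tested.

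Of the 8 genes, 2 fell in shACSL4 cells (CPT1A and ACADVL), 1 rose (ETFDH) and 5 were not called by edgeR's quasi-likelihood test at a Benjamini-Hochberg adjusted p of 0.05. Over all tested genes 23.1% were called lower, 24% higher and 47.2% in either direction, and the 3 calls among 8 genes do not set the group apart from that background. The shACSL4 and shControl libraries did not overlap in CPM for 4 of the 8 (CPT1A, ACADVL, ETFDH and EHHADH), against 55.1% of all tested genes. The median log2 fold change was -0.10 over the 8 and 0.01 over all tested genes. In bulk RNA, fewer cells expressing a gene and less of its RNA per cell cannot be told apart.

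**Figure D1:**
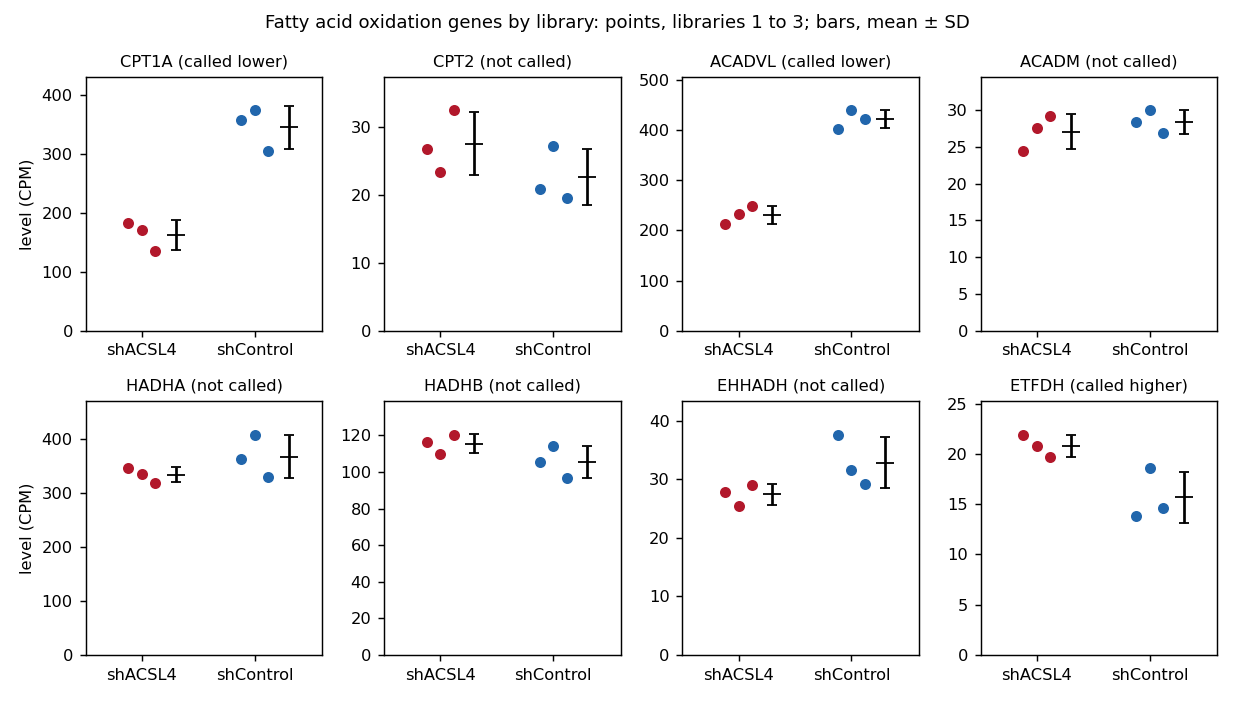
CPM of each of the 8 genes in every library, shACSL4 to the left of shControl in each panel; points are libraries and bars the mean with its SD (n = 3). For CPT1A the shACSL4 libraries sit between 134 and 183 CPM, below all shControl libraries at 304 to 374 CPM.

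CPT1A, the liver-type outer membrane enzyme that commits long chains to mitochondrial import, fell in the shACSL4 cells. It was at 183, 169.8 and 134 CPM in the shACSL4 libraries, against 356, 374 and 304 CPM in the shControl libraries. Every shACSL4 library was below every shControl library, with shACSL4 replicate 3 the lowest. The means were 162 ± 24.9 CPM in shACSL4 and 345 ± 36.2 CPM in shControl (SD, n = 3 each), so that shACSL4 held 47.1% of the shControl level. The log2 fold change was -1.09 (SE 0.11, 95% interval -1.32 to -0.85, edgeR adjusted p = 8.44e-07), and 4.58% of tested genes had a lower one. It was called in all 15 alternative settings, at -1.18 to -0.97. The gene (ENSG00000110090) spans 68754620 to 68844410 on the minus strand of chromosome 11 (GRCh38, GENCODE v29, as for the spans below).

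CPT2, the matrix-side partner enzyme, did not pass the test and lay on the other side of 0. It was at 26.7, 23.3 and 32.5 CPM in shACSL4 and at 20.9, 27.2 and 19.6 CPM in shControl. The groups overlapped through shControl replicate 2, which exceeded shACSL4 replicates 1 and 2. CPT2 (ENSG00000157184) spans 53196429 to 53214197 on the plus strand of chromosome 1. The log2 fold change was 0.28 (SE 0.14, 95% interval -0.01 to 0.58, edgeR adjusted p = 0.107). Single libraries decided this call: without shACSL4 replicate 2 it was 0.39 with an adjusted p of 0.0479, and without shControl replicate 2 it was 0.44 with an adjusted p of 0.0167.

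CPT1A and CPT2, which act at the opposite ends of the shuttle, were also set against each other within each library. The log2 ratio of CPT1A to CPT2 in length-normalised fragment units (FPKM) was 3.44, 3.54 and 2.72 in shACSL4, against 4.76, 4.45 and 4.63 in shControl. The groups did not overlap, and the difference of -1.38 reached the smallest p that an exact two-sided permutation test allows with 3 against 3 libraries, 0.1 (0.1 adjusted over 3 ratios). Such a ratio, here and below, restates the fold changes of both genes without scaling between libraries and is not separate support for them. Of the 8 listed genes of the carnitine shuttle, 7 were tested: 3 fell, 0 rose at the adjusted threshold, and the median log2 fold change was -0.28. Besides CPT1A these were CRAT, the carnitine acetyltransferase, at 4.13 ± 0.42 CPM in shACSL4 and 10.1 ± 1.34 CPM in shControl (-1.29, edgeR adjusted p = 1.49e-05), and SLC22A5, the plasma membrane carnitine transporter, at 31.5 ± 2.45 CPM in shACSL4 and 45.1 ± 6.53 CPM in shControl (-0.52, edgeR adjusted p = 0.00104). SLC22A5 lay on a falling background, since set against the 51 genes around it on the chromosome its value was -0.26 with an adjusted p of 0.0640. Here and below, such a window of 51 tested genes is centred on the gene and counts the gene itself. The translocase SLC25A20 had a log2 fold change of -0.28 and the peroxisomal carnitine octanoyltransferase CROT one of 0.26, with edgeR adjusted p-values of 0.101 and 0.143.

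**Figure D2:**
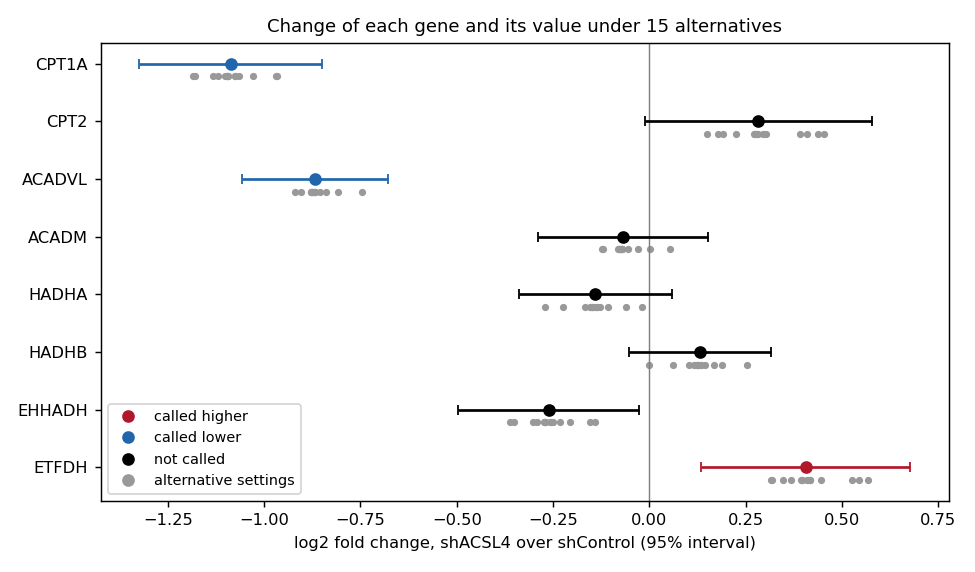
Log2 fold change of shACSL4 over shControl for the 8 genes with 95% intervals from edgeR (large points and bars, coloured by call), and below each the values in the 15 alternative settings (grey points). CPT1A at -1.09 and ACADVL at -0.87 lie furthest from 0, and their intervals and alternative values stay below it.

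ACADVL, the dehydrogenase that opens the oxidation of long chains, also fell. It was at 213, 233 and 248 CPM in the shACSL4 libraries, against 403, 440.3 and 423 CPM in the shControl libraries. The groups lay far apart compared with the spread inside either. Means were 232 ± 17.9 CPM in shACSL4 and 422 ± 18.5 CPM in shControl (SD, n = 3 each), and shACSL4 held 54.8% of the shControl level. The log2 fold change was -0.87 (SE 0.09, 95% interval -1.06 to -0.68, edgeR adjusted p = 8.33e-07), with 6.94% of tested genes lower, and the call held in all 15 alternative settings at -0.92 to -0.75. ACADVL (ENSG00000072778) spans 7217125 to 7225273 on the plus strand of chromosome 17. DLG4, a synaptic scaffold gene that starts head to head with ACADVL on the opposite strand, had a log2 fold change of -1.90 (edgeR adjusted p = 1.25e-05) on 20 to 26 counts in shACSL4 and 69 to 106 in shControl. Their exons overlap by 85 bases, 1.75% of the ACADVL exon bases, and whether reads were counted by strand is not given in the sources used here.

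ACADM, the medium-chain dehydrogenase, did not pass the test. It was at 24.4, 27.6 and 29.2 CPM in shACSL4 and at 28.4, 30.0 and 26.8 CPM in shControl. The groups overlapped on both sides. ACADM (ENSG00000117054) spans 75724347 to 75787575 on the plus strand of chromosome 1. The log2 fold change was -0.07 (SE 0.10, 95% interval -0.29 to 0.15, edgeR adjusted p = 0.625), and no alternative setting called it. The log2 ratio of ACADM to ACADVL in FPKM was -3.10, -3.05 and -3.06 in shACSL4, against -3.80, -3.85 and -3.95 in shControl. The libraries of the groups did not overlap in this ratio, with a difference of 0.80 (exact two-sided permutation p = 0.1, the smallest possible).

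In the wider family of mitochondrial acyl-CoA dehydrogenases most calls were higher. Of 11 listed genes 9 were tested, 5 rose and only ACADVL fell, with a median log2 fold change of 0.33. GCDH, which acts in lysine breakdown, was at 22.4 ± 0.72 CPM in shACSL4 and 7.54 ± 1.47 CPM in shControl (1.56, edgeR adjusted p = 1.91e-07). ACADSB, which acts in isoleucine breakdown, was at 46.2 ± 1.05 CPM in shACSL4 and 18.4 ± 1.36 CPM in shControl (1.33, edgeR adjusted p = 1.55e-08). ACAD9, a complex I assembly factor with dehydrogenase activity, was at 77.2 ± 2.61 CPM in shACSL4 and 45.6 ± 3.43 CPM in shControl (0.76, edgeR adjusted p = 2.85e-06). ACADS, the short-chain enzyme, had a log2 fold change of -0.08 (edgeR adjusted p = 0.488). The remaining genes that rose, named after their values were seen, were ACAD8, which acts in valine breakdown, and ACAD10, with log2 fold changes of 0.50 and 0.33 (edgeR adjusted p = 0.00552 and 0.0056).

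HADHA carries the hydratase and hydroxyacyl-CoA dehydrogenase activities of the trifunctional protein and HADHB its thiolase. HADHA was at 347, 335 and 319 CPM in shACSL4 and at 364, 409 and 330.3 CPM in shControl. HADHB was at 116, 109.8 and 121 CPM in shACSL4 and at 105, 114 and 97.0 CPM in shControl. The groups overlapped for both subunits. Neither passed the test, with log2 fold changes of -0.14 for HADHA (SE 0.09, 95% interval -0.34 to 0.06, edgeR adjusted p = 0.237) and 0.13 for HADHB (SE 0.09, 95% interval -0.05 to 0.32, edgeR adjusted p = 0.232). Leaving out 1 library at a time gave -0.22 to -0.06 for HADHA and 0.06 to 0.19 for HADHB.

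These subunits assemble into 1 complex and their genes start head to head on chromosome 2, HADHA (ENSG00000084754) at 26190635 to 26244726 on the minus strand and HADHB (ENSG00000138029) at 26243170 to 26290468 on the plus strand. Their spans overlap by 1557 bases without a shared exon base. The log2 ratio of HADHB to HADHA in FPKM was -1.54, -1.57 and -1.37 in shACSL4, against -1.75, -1.80 and -1.73 in shControl. All shACSL4 libraries were higher in this ratio than all shControl libraries, by 0.27 on average (exact two-sided permutation p = 0.1, the smallest possible).

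**Figure D3:**
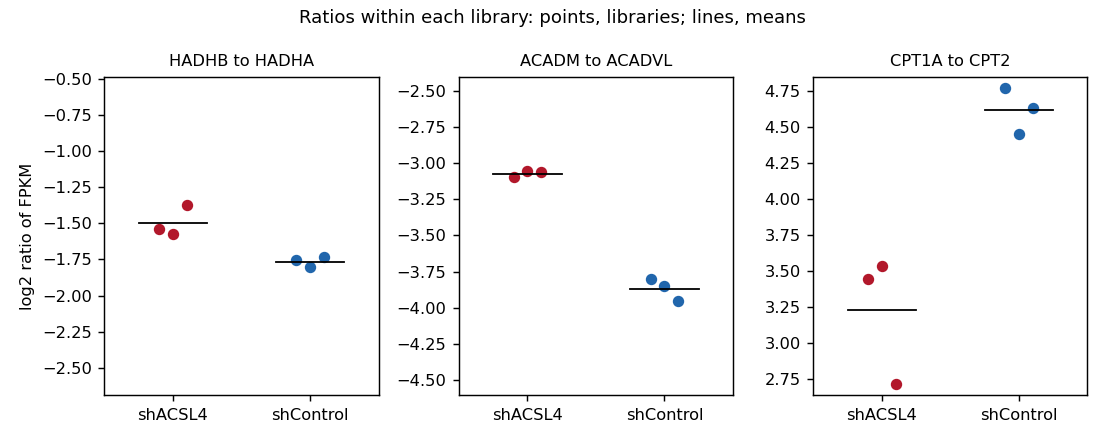
Log2 ratios of FPKM within each library for HADHB to HADHA, ACADM to ACADVL and CPT1A to CPT2, shACSL4 left of shControl; points are libraries and lines group means. The groups do not overlap in any of the 3 panels, and the CPT1A to CPT2 ratio differs most, by -1.38.

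Among the other genes of these mitochondrial steps the directions were mixed. All 10 listed genes, HADHA and HADHB included, were tested: 3 rose, 2 fell and the median was 0.06. ECI2, an enoyl-CoA isomerase of unsaturated chains, was at 9.17 ± 0.46 CPM in shACSL4 and 22.8 ± 0.67 CPM in shControl (-1.31, edgeR adjusted p = 1.86e-07). The more abundant isomerase ECI1, named after its values were seen, was not called (0.08, edgeR adjusted p = 0.498). ECI1 was at 92.1 ± 6.60 CPM in shACSL4 and 86.9 ± 10.0 CPM in shControl. ECHS1, the short-chain hydratase, had 150.1 ± 8.53 CPM in shACSL4 and 110.8 ± 17.2 CPM in shControl (0.44, edgeR adjusted p = 0.00221), but set against the 51 genes around it its value was -0.03. HSD17B10, a dehydrogenase of short and branched chains, had a log2 fold change of 0.33 and DECR1, the dienoyl-CoA reductase, one of 0.25, with edgeR adjusted p-values of 0.00785 and 0.0428. Without shControl replicate 3 neither of these was called, at 0.25 with an adjusted p of 0.0608 and at 0.20 with an adjusted p of 0.161; DECR1, not called in 8 of the 15 alternative settings, also lost its call without shACSL4 replicate 2, without shACSL4 replicate 3 and without shControl replicate 1. HADH, the short-chain hydroxyacyl-CoA dehydrogenase, had a log2 fold change of -0.24 (edgeR adjusted p = 0.0368). Its call was lost without shACSL4 replicate 1 or 2 (adjusted p = 0.0641 and 0.181), without shControl replicate 1 or 2 (adjusted p = 0.0744 and 0.0934), and in 3 other settings, at -0.11 to -0.23.

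ETFDH, which passes electrons from the acyl-CoA dehydrogenases to ubiquinone, was the only one of the 8 genes called higher. It was at 21.9, 20.7 and 19.7 CPM in the shACSL4 libraries, against 13.8, 18.6 and 14.7 CPM in the shControl libraries. The lowest shACSL4 library lay just above the highest shControl library. Means were 20.8 ± 1.13 CPM in shACSL4 and 15.7 ± 2.55 CPM in shControl (SD, n = 3 each), on 311 to 364 counts in shACSL4 and 218 to 296 counts in shControl, with a log2 fold change of 0.41 (SE 0.13, 95% interval 0.13 to 0.68, edgeR adjusted p = 0.0155). This call rested on single libraries: the adjusted p was 0.0598 without shACSL4 replicate 1, 0.0887 without shControl replicate 1 and 0.0663 without shControl replicate 3, at log2 fold changes of 0.37, 0.32 and 0.35. ETFDH (ENSG00000171503) spans 158672125 to 158709623 on the plus strand of chromosome 4. It shares 490 exon bases, 10.9% of its own, with PPID, which ends tail to tail with it on the opposite strand and had a log2 fold change of -0.12 (edgeR adjusted p = 0.349). It also shares 131 exon bases, 2.92% of its own, with C4orf46 on the opposite strand, which fell (-0.34, edgeR adjusted p = 0.043). Without knowledge of strand, reads in these stretches cannot be assigned.

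ETFB, a subunit of the electron carrier before ETFDH, fell. It was at 27.7, 30.3 and 30.3 CPM in the shACSL4 libraries, against 43.6, 51.3 and 40.3 CPM in the shControl libraries, without overlap (-0.61, SE 0.10, edgeR adjusted p = 0.000132). Its partner ETFA had 269.6 ± 11.6 CPM in shACSL4 and 293 ± 19.6 CPM in shControl (-0.12, edgeR adjusted p = 0.268). In the list of 4 electron transfer genes 1 rose and 1 fell.

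EHHADH, the peroxisomal bifunctional enzyme, did not pass the test although its groups did not overlap. It was at 27.8, 25.4 and 29.03 CPM in shACSL4 and at 37.7, 31.6 and 29.19 CPM in shControl. The highest shACSL4 library, replicate 3, lay just under the lowest shControl library, also replicate 3. The log2 fold change was -0.26 (SE 0.11, 95% interval -0.50 to -0.03, edgeR adjusted p = 0.0626), and without shControl replicate 3 it was -0.35 with an adjusted p of 0.0278. The gene (ENSG00000113790) spans 185190624 to 185281990 on the minus strand of chromosome 3. Its antisense partner EHHADH-AS1 overlaps 5.72% of its exon bases and had no read in any library.

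Of 14 genes listed for peroxisomal oxidation 13 were tested: 1 rose, 2 fell and the median was 0.01. SCP2, a thiolase and sterol carrier, was at 100.9 ± 3.95 CPM in shACSL4 and 147.7 ± 23.1 CPM in shControl (-0.55, edgeR adjusted p = 0.000316), and HSD17B4, the other bifunctional enzyme, at 147.2 ± 6.07 CPM in shACSL4 and 182.6 ± 5.09 CPM in shControl (-0.31, edgeR adjusted p = 0.005). ACOX3, an oxidase of branched chains, had a log2 fold change of 0.51 (edgeR adjusted p = 0.0104) and lost its call without shACSL4 replicate 1 (0.42, adjusted p = 0.0595). Set against the 51 genes around it, ACOX3 was at 0.16 with an adjusted p of 0.426, and by library size alone HSD17B4 was at -0.19 with an adjusted p of 0.0588.

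**Figure D4:**
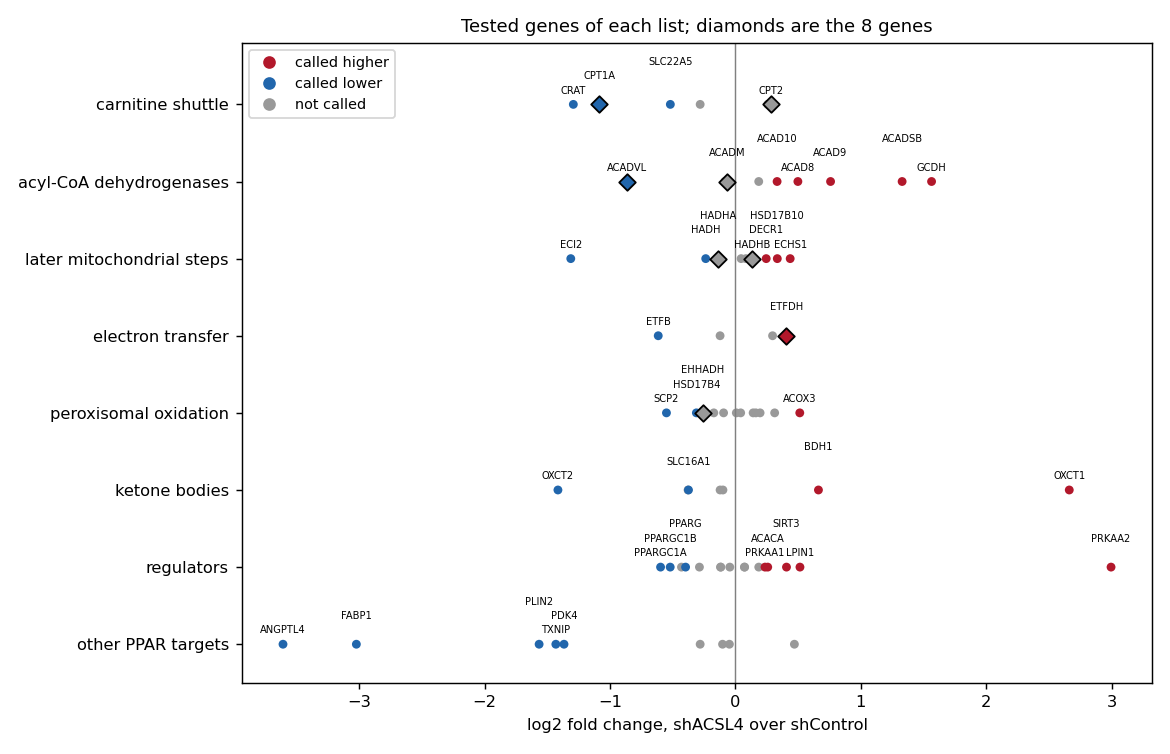
Log2 fold change of shACSL4 over shControl for each tested gene of the oxidation, ketone body, regulator and PPAR target lists, 1 row a list; red points were called higher and blue points lower at an edgeR adjusted p of 0.05, grey points were not called, and diamonds mark the 8 genes. The PPAR target row reaches furthest to the left, down to -3.61 for ANGPTL4.

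Across the 5 oxidation lists without the 8 genes, 35 of 39 genes were tested, 9 rose and 7 fell, with a median log2 fold change of 0.08. Over all tested genes 24% rose and 23.1% fell, with a median of 0.01, so these counts do not set the lists apart from that background. The list of ACADVL held 5 genes that rose among 9 tested, and the list of CPT1A held 0 among 7. By library size alone the list of CPT1A held 2. The difference between these small lists was not tested.

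Among genes of ketone body metabolism the calls went both ways. BDH1, which interconverts acetoacetate and hydroxybutyrate, rose: it was at 132, 116 and 131 CPM in the shACSL4 libraries, against 77.9, 79.7 and 81.6 CPM in the shControl libraries (0.66, SE 0.09, edgeR adjusted p = 8.99e-06). OXCT1, the transferase by which cells outside the liver use ketone bodies, was low in both groups, at 2.82, 2.11 and 3.16 CPM in shACSL4 and 0.65, 0.25 and 0.34 CPM in shControl (2.66, SE 0.40, edgeR adjusted p = 4.6e-05). SLC16A1, a monocarboxylate transporter that carries ketone bodies, butyrate and lactate, was at 179.8 ± 10.9 CPM in shACSL4 and 233 ± 7.29 CPM in shControl (-0.37, edgeR adjusted p = 0.00166). Of the 8 genes listed for ketone bodies 7 were tested, 2 rose and 2 fell, and the second that fell, OXCT2, was under 1 CPM in both group means (-1.41, edgeR adjusted p = 0.0329) and lost its call without shACSL4 replicate 2, shACSL4 replicate 3, shControl replicate 2 or shControl replicate 3 (adjusted p = 0.0945, 0.142, 0.0535 and 0.0668). BDH2, AACS and the acetoacetyl-CoA thiolase ACAT1 had log2 fold changes of -0.38, -0.10 and -0.12 (edgeR adjusted p = 0.153, 0.339 and 0.284).

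Per length, the 8 genes spanned a wide range of FPKM levels, and the order of the upper ranks differed between groups. HADHA stood highest in shACSL4 at 74.9 ± 3.07 FPKM, followed by ACADVL at 46.8 ± 3.66, HADHB at 26.6 ± 1.18 and CPT1A at 24.3 ± 3.74 FPKM, the ranges of HADHB and CPT1A overlapping. In shControl ACADVL at 86.3 ± 3.91 and HADHA at 83.3 ± 9.44 FPKM overlapped in range, followed by CPT1A at 52.2 ± 5.85 and HADHB at 24.5 ± 2.15 FPKM. CPT1A thus stood above HADHB in every shControl library and overlapped with it in shACSL4.

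The lower ranks kept 1 order in both groups. EHHADH and ACADM overlapped in each, at 5.74 ± 0.37 and 5.58 ± 0.51 FPKM in shACSL4 and at 6.94 ± 0.95 and 5.90 ± 0.37 FPKM in shControl. ETFDH followed at 4.55 ± 0.24 FPKM in shACSL4 and 3.47 ± 0.58 FPKM in shControl, and CPT2 was lowest at 2.59 ± 0.43 FPKM in shACSL4 and 2.15 ± 0.40 FPKM in shControl. The mean of the highest gene was 28.9 times that of the lowest in shACSL4 and 40.2 times in shControl.

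**Figure D5:**
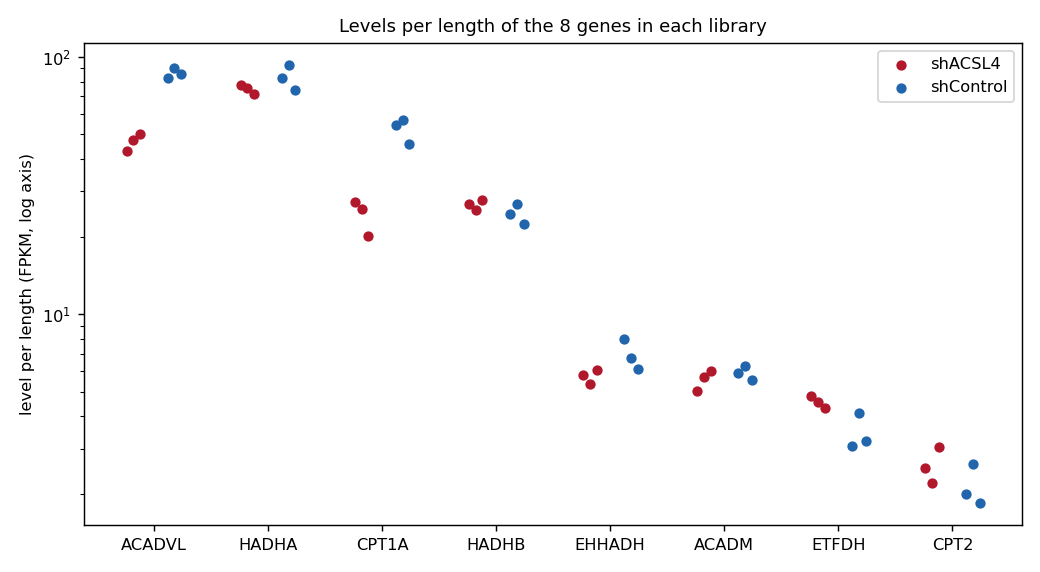
FPKM of the 8 genes in every library on a log axis, shACSL4 and shControl side by side; each point is a library. By group means, ACADVL and CPT1A differ most between groups, at 46.8 against 86.3 and 24.3 against 52.2 FPKM, and CPT2 is lowest in both groups.

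The summed level of the 8 genes was 959, 945 and 933 CPM in the shACSL4 libraries, against 1330, 1444 and 1245 CPM in the shControl libraries. CPT1A and ACADVL made up 41.2%, 42.6% and 41.0% of that sum in shACSL4, against 57.1%, 56.4% and 58.4% in shControl. The other 6 summed to 564, 542 and 550.0 CPM in shACSL4 and 570.0, 630.1 and 518 CPM in shControl, with overlap between the groups. Within shControl, replicate 2 was highest for 7 of the 8 genes and also had the highest mitochondrial share, 9.91%, while replicate 3 was lowest for 6 of the 8; whether either shift bears on the results was not tested. In the authors' deposited table the log2 fold changes were -1.10 for CPT1A, 0.27 for CPT2, -0.88 for ACADVL, -0.08 for ACADM, -0.15 for HADHA, 0.12 for HADHB, -0.28 for EHHADH and 0.39 for ETFDH.

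Set against their chromosomal surroundings, the window of 51 genes centred on CPT1A had a median log2 fold change of 0.05. That of ACADVL had 0.01, against -1.09 and -0.87 for CPT1A and ACADVL themselves. The windows of ETFDH and CPT2 lay at -0.16 and -0.17, and those of HADHA and HADHB at 0.13 each. In both of the latter windows 0.13 is the value of HADHB itself, so HADHB cannot differ from its window. HADHA at -0.27 against its window is therefore set against HADHB. CPT2 overlaps by 99 exon bases with C1orf123, which ends tail to tail with it (-0.09, edgeR adjusted p = 0.577), and by 1151 bases, 11% of its own, with the antisense gene AL606760.2, which had at most 3 counts in any library. ACADM shares 157 exon bases with RABGGTB, which lies after it on the same strand and overlaps its 3′ end (-0.21, edgeR adjusted p = 0.166).

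Among 16 listed regulators of oxidation, all tested, 5 rose and 3 fell, against 24% and 23.1% of all tested genes. The 3 that fell were the 2 PGC-1 coactivators and PPARG, while the receptors PPARA, PPARD and ESRRA did not pass the test. PPARGC1A was at 17.4 ± 0.94 CPM in shACSL4 and 26.4 ± 3.78 CPM in shControl (-0.60, edgeR adjusted p = 0.000689). PPARGC1B was at 34.8 ± 4.77 CPM in shACSL4 and 49.8 ± 9.62 CPM in shControl (-0.52, edgeR adjusted p = 0.00353), with overlapping libraries. PPARG, PPARA, PPARD and ESRRA, named after their values were seen, had log2 fold changes of -0.40, -0.12, 0.07 and -0.04 (edgeR adjusted p = 0.000769, 0.38, 0.558 and 0.702).

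LPIN1, a phosphatidate phosphatase and coactivator, and SIRT3, the mitochondrial deacetylase, had log2 fold changes of 0.52 and 0.41 (edgeR adjusted p = 0.000544 and 0.00707). LPIN1 set against the 51 genes around it was at -0.03, and SIRT3 lost its call without shControl replicate 1 (0.30, adjusted p = 0.0560). The median over all 16 listed regulators was 0.01. ACACA and PRKAA1, named after their values were seen, also rose, at 0.26 and 0.24 (edgeR adjusted p = 0.0401 and 0.0302). PRKAA2, a catalytic subunit of the energy sensor AMPK, named after its values were seen, was at 5.07 ± 0.66 CPM in shACSL4 and 0.62 ± 0.19 CPM in shControl (3.00, edgeR adjusted p = 5.52e-07). The number that rose was 3 without shACSL4 replicate 1, without shACSL4 replicate 2 or without shControl replicate 2, and 2 without shControl replicate 1.

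Among other PPAR target genes every call in the test reported here was lower. The list was chosen with earlier results of these data known. Of 13 listed genes 9 were tested, 5 fell and 0 rose, against 23.1% and 24% of all tested genes. The median log2 fold change was -1.37, and SLC25A20 on this list was not called. UCP2, named after its values were seen, lay on the other side of 0 and was not called (0.47, edgeR adjusted p = 0.0852). By library size alone, or without shControl replicate 3, 1 gene of the list was called higher. FABP1, ANGPTL4 and PLIN2 had log2 fold changes of -3.02, -3.61 and -1.56, and TXNIP, a thioredoxin-binding protein that also responds to glucose, fell to 286 ± 17.5 CPM in shACSL4, against 772 ± 27.5 CPM in shControl (-1.43, edgeR adjusted p = 2.33e-09). PDK4, the kinase that restrains pyruvate dehydrogenase, named after its values were seen, was at 5.23 ± 0.58 CPM in shACSL4 and 13.5 ± 2.52 CPM in shControl (-1.37, edgeR adjusted p = 5.99e-06). Of the 6 tested markers of other cell types 5 were also called lower in shACSL4, with CPS1 and CIDEC making up most of their sum. The other listed liver and fat cell markers, ALB, APOB and ADIPOQ, had at most 3 counts in each library. Whether any of these reads came from other cells was not tested, nor was the part of these markers in the falls above.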

How the data were processed

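Per the labels' protocols, total RNA was depleted of ribosomal RNA before library construction. Per the submitters' processing notes, CASAVA and HISAT2 were used with GRCh38/hg38; no source used here gives versions, the counting tool or its strand setting. The authors deposited 1 table with raw read counts per gene, FPKM values and the log2 fold changes of their own comparison. FPKM as deposited by the authors follow library sizes scaled by median-of-ratios factors, as the values show. The columns named NC were matched by number to the shControl samples. Of 58735 genes, 24674 had no read.

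Counts were filtered with filterByExpr (15694 genes left), scaled by TMM and tested with edgeR 4.0.16 (quasi-likelihood, R 4.3.3), with Benjamini-Hochberg adjustment over all genes tested and a threshold of 0.05; CPM use the TMM sizes. The fit was also run on simulated counts in which far fewer genes changed than were called here, equally in both directions. That run therefore does not test scaling or error control at the extent of change in these data. Ratios of FPKM were compared by exact permutation. Alternatives, 15 in all, used limma 3.58.1, DESeq2 1.42.0, other scalings and filters, log2(FPKM + 1), a replicate block, neighbouring genes as the baseline and each library left out. The baseline of neighbouring genes was the median of a window of 51 that counts the gene itself. No library pair within a group was within sampling noise of the other (chi-square per degree of freedom 3.96 to 15.9). The 8 genes and all lists were chosen with earlier results of these data known. Beside the 8, the text names up to 4 called genes per list with the largest absolute change and a mean of at least 50 counts, every tested ketone body gene, and neighbouring genes; others were named for their role after their values were seen. All 140 list symbols were in the table, 2 under an older symbol. Some genes of these pathways are not reported here, and list counts and medians leave them out. Reads carry no molecular identifiers in the sources used here, so floors cover counting error only. Gene spans are from GENCODE v29 on GRCh38.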

Additional observations from a re-analysis of the deposited data

How the results depend on the processing

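CPT1A and ACADVL kept direction and call in all 15 settings; of the other 6, ACADM was never called and changed sign in some, and each of the rest crossed the threshold in at least 1. Library size alone moved the median of all genes by 0.12 (log2) and the share of calls that were higher to 65.6% of 7439, against 50.9% of 7400; 3 of the 8 genes were then called higher, with CPT2 at 0.41 and HADHB at 0.25, of which 0.12 is that shift, ACADM was at 0.053, and calls were 2 higher for the carnitine shuttle, 1 lower for the later mitochondrial steps, 2 higher for electron transfer, 4 higher and 1 lower for peroxisomal genes, 1 higher for PPAR targets, and 1 higher and 0 lower for thioesterases. ACAT1 at 7.39e-05, AACS at 0.021 and C1orf123 at 0.029 turned sign there. Relative to the 51 neighbouring genes, 2 of the 8 were higher and 4 lower, with CPT2 at 0.45, HADHA at -0.27 and EHHADH at -0.36 now called; the carnitine shuttle had 1 higher, electron transfer 2 higher, peroxisomal genes 0 higher and 4 lower, ketone genes 1 lower, regulators 3 higher and thioesterases 1 lower, and ECHS1 (-0.031), LPIN1 (-0.030), ACAT1 (0.0037), PPID (0.094) and C1orf123 (0.078) turned sign. Limma-trend on FPKM gave 1 lower for the later steps and 1 lower for thioesterases, as did limma-voom for the last. Ketone genes had 1 lower under DESeq2, without a filter and at a mean of 50 counts, where 1 was higher and thioesterases had 0 lower; regulators had 3 and peroxisomal genes 2 higher without a filter. Leaving out 1 library gave 0 to 2 of the 8 higher, 0 to 1 higher for the carnitine shuttle, 1 to 3 higher and 1 to 2 lower for later steps, 0 to 1 higher for electron transfer, 1 to 2 lower for ketone genes, 2 to 5 higher for regulators, 0 to 1 higher for PPAR targets and 0 to 2 lower for thioesterases; log2 fold changes ran from 0.15 to 0.44 for CPT2, -0.22 to -0.061 for HADHA, 0.062 to 0.19 for HADHB, -0.12 to 0.0015 for ACADM, -0.35 to -0.15 for EHHADH and 0.32 to 0.54 for ETFDH. The cause of these changes was not tested. An exact permutation test on ratios cannot go below p = 0.1 with 3 libraries a group. Same-numbered libraries did not deviate together (correlations 0.06, -0.0013 and 0.0075) and did not all correlate best with their own number, so the numbers do not pair them; with the replicate block 7414 genes were called, CPT1A was at -1.09, and no call given here changed.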

Other observations

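Acyl-CoA thioesterases split acyl-CoA into free fatty acid and coenzyme A. Of 12 listed genes 9 were tested, 2 fell and 0 rose, against 23.1% and 24% of all tested genes. The median log2 fold change was -0.14 against 0.01 over all tested genes. ACOT7, a cytosolic long-chain thioesterase, was at 41.7 ± 0.73 CPM in shACSL4 and 50.4 ± 8.17 CPM in shControl (SD, n = 3 each; -0.27, edgeR adjusted p = 0.0434), and it lost its call in 10 of 15 alternative settings, 5 of which left out 1 library: shACSL4 replicate 1, 2 or 3 or shControl replicate 1 or 2, at -0.30 to -0.15. The second that fell, THEM5, named after its values were seen, was at 0.42 ± 0.35 CPM in shACSL4 and 1.17 ± 0.42 CPM in shControl (-1.45, edgeR adjusted p = 0.0323), and it lost its call without shACSL4 replicate 1 or 3 (adjusted p = 0.109 and 0.137), without shControl replicate 1 or 2 (adjusted p = 0.0532 and 0.14) and by library size alone (adjusted p = 0.0515).

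The acyl-CoA dehydrogenases of branched-chain amino acid breakdown pass electrons to the same carrier as those of fatty acid oxidation. Of 19 listed genes 17 were tested, 6 rose and 2 fell, with a median log2 fold change of 0.13. Beside ACADSB, ALDH6A1, the methylmalonate-semialdehyde dehydrogenase, was at 52.0 ± 4.48 CPM in shACSL4 and 35.2 ± 2.49 CPM in shControl (0.56, edgeR adjusted p = 0.000151). PCCB, a propionyl-CoA carboxylase subunit, was at 58.9 ± 3.65 CPM in shACSL4 and 92.8 ± 8.90 CPM in shControl (-0.66, edgeR adjusted p = 2.33e-05), and its partner PCCA, named after its values were seen, was at 25.9 ± 1.54 CPM in shACSL4 and 24.4 ± 2.30 CPM in shControl (0.08, edgeR adjusted p = 0.553). HIBADH, the hydroxyisobutyrate dehydrogenase of valine breakdown, was at 93.9 ± 4.62 CPM in shACSL4 and 134.5 ± 8.74 CPM in shControl (-0.52, edgeR adjusted p = 0.000108).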
